A study of Mus musculus with 16 samples.

Results

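Immediate early genes are transcribed within minutes of a stimulus and need no new protein for it. Fos, Fosb, Fosl2, Jun, Junb and Jund code for subunits of AP-1, a dimer in which a Fos protein pairs with a Jun protein or 2 Jun proteins pair with each other. Egr1 codes for a zinc finger factor, Nr4a1 for an orphan nuclear receptor, and Atf3 for a stress-induced factor of the ATF/CREB family that can pair with Jun proteins. In beta cells, glucose and depolarisation raise calcium and cAMP, and CREB and the serum response factor then drive several of these genes. The regions of open chromatin at these 9 genes were examined in islets of 8 inbred mouse strains.

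The genes were chosen by name. Peaks of the 16 samples on chromosomes 1 to 19 were merged where they overlapped or touched, and every region was taken that overlapped the gene body or the 20 kb on either side of it, a span that holds the 3 kb upstream. This gave 83 of the 347712 merged regions. The samples were pancreatic islets of the strains 129S1_SvImJ (129), A_J (AJ), C57BL/6J (B6), NOD_ShiLtJ (NOD), NZO_HlLtJ (NZO), CAST_EiJ (CAST), PWK_PhJ (PWK) and WSB_EiJ (WSB), with 1 female and 1 male sample of each, and open chromatin was read by ATAC-seq, where a transposase cuts accessible DNA. No treatment, age or batch was given in the labels. Each sample was made from 50 islets, so that it mixes cell types and, where samples differ, a change in cell makeup and a change within cells cannot be told apart. The study grouped CAST, PWK and WSB as wild-derived, and the other 5 strains are called classical here.

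The signal of a sample in a region was the tallest summit of its peaks there, as a whole number not scaled to depth. It is given below as scaled signal, the summit divided by that sample's median over the 40940 regions that carried a peak in every sample (shared regions), so that 1 is a typical shared region. These medians lay between 32 (PWK male) and 136 (CAST male). The read totals of single samples are unknown here. Start-site regions of 8 of the 10 endocrine markers were present in all 16 samples, and those of Sst and Ppy in none. Their summed scaled signal was between 14.1 and 19.4 in every sample. Of the acinar markers, 9 of 10 had no region in any sample. The duct sum was 3.82 in the NZO male and between 0.446 and 1.48 in the others, with all 6 duct markers having a region in some sample. Of the endothelial and leukocyte markers, 4 of 6 and 6 of 8 had no region in any sample, among them Pecam1, Cdh5 and Cd3e. The leukocyte sum was 0.691 in the NZO male, 0.119 in the B6 female, 0.111 in the NZO female and 0 elsewhere, and the endothelial sum lay between 0 and 0.493.

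Promoter sequence is shown for Fos, Jun, Junb and Nr4a1, whose RefSeq windows overlapped no annotated untranslated region and held a match to the motifs below. The Jund window overlapped none either but held no match. Each is the 250 bases before the RefSeq start (GRCm38.p6, the assembly of mm10), 5′ to 3′ in the direction of the gene. Capitals mark matches, on either strand, to TGACNTCA, which includes the full cAMP response element (CRE), and to its core TGACG, to which CREB can bind.
Fos, chr12:85473640-85473889, plus strand: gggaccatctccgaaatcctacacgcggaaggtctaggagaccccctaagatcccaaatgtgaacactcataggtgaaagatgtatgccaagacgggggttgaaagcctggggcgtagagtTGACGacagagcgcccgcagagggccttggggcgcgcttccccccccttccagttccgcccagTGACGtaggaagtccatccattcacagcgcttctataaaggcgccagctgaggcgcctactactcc
Jun, chr4:95052223-95052472, minus strand: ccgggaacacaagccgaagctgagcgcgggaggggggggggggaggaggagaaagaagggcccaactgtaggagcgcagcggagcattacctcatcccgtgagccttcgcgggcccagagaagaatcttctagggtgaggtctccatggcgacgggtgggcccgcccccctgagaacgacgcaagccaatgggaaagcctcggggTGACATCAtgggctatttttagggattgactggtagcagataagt
Junb, chr8:84978749-84978998, minus strand: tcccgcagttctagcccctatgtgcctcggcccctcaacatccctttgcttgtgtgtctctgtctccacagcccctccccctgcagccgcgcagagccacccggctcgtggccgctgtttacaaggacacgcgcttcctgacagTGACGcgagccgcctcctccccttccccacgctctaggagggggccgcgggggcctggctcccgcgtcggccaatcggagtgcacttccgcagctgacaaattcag
Nr4a1, chr15:101266596-101266845, plus strand: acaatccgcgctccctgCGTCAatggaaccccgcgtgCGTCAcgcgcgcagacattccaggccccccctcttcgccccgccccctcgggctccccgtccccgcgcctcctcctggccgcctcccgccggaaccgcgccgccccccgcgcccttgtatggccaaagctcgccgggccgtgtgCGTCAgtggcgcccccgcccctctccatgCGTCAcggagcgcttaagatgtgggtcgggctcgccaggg

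The Nr4a1 window held 4 copies of TGACG, and 0.696% of the 27025 promoters in the table held 3 or more. Fos held 2 copies and Junb held 1. Jun held none, but it had the CRE-like TGACATCA 45 bases before its start. Over all promoters, 17.9% held TGACG and 7.59% TGACNTCA. Fosb and Atf3, whose windows are not printed, held 1 copy of TGACG each, and those of Fosl2 and Jund held none. The RefSeq starts differ from the first GENCODE start in some genes. That of Jund lies 1210 bases before it, and those of Fosl2, Nr4a1 and Atf3 lie 671, 12577 and 34706 bases after it, so these windows are promoters of the RefSeq start only. The canonical AP-1 site TGANTCA (6.87% of promoters) and the CArG box of the serum response factor (1.40%) had no match in the windows of these 8 genes. No window was available for Egr1, and bases further upstream were not searched. The core motif was added after these sequences had been read, and a match is only a match of letters.

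The genes lie apart in the genome (mm10, GENCODE M21). On the plus strand are Fos (chr12:85473890-85477273), Fosl2 (chr5:32135801-32157842), Jund (chr8:70698949-70700616), Nr4a1 (chr15:101254269-101274795) and Egr1. On the minus strand are Fosb (chr7:19302696-19310051), Jun (chr4:95049034-95052222), Junb (chr8:84974484-84978718) and Atf3 (chr1:191170296-191218039). Of the 83 regions, 22 overlapped a gene body, 2 only the 3 kb upstream and 59 only the flanks, and 11 overlapped a start of another gene. The number of regions ran from 4 at Jund to 17 at Nr4a1.

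Chromatin at these genes was open over long stretches. The median width of shared regions was 1144.5 bases, and that of shared start-site regions was 1967. The region over the start site was 10919 bases wide at Fos, 10964 at Jun, 12869 at Egr1 and 13391 at Junb. It was 26030 at Jund, 27042 at Atf3 and 30047 at Fosb. Only Fosl2 (7455 bases) and Nr4a1 (2643 bases) had narrower ones. Merging over 16 samples widens a region, and the widest single peak in the start-site region was that of the 129 female at 6 of the 9 genes. At Fosb it measured 29975 bases there, against a median of 11371.5 over the samples. The median at Atf3 was 12416.5 bases. The Atf3 peak that held the tallest point was 24651 bases wide in the 129 female and 2996 in the CAST female, the next widest. The broad regions also covered starts of other genes. These were Rtn2 and Gm26802 at Fosb, Junos and Gm12703 at Jun, and Prdx2, Rnaseh2a and Gm49661 at Junb. At Jund they were Iqcn, Gm3336 and Gm11175, and at Atf3 Fam71a. The narrower Fosl2 region covered the start of Gm10463.

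**Figure D1:**
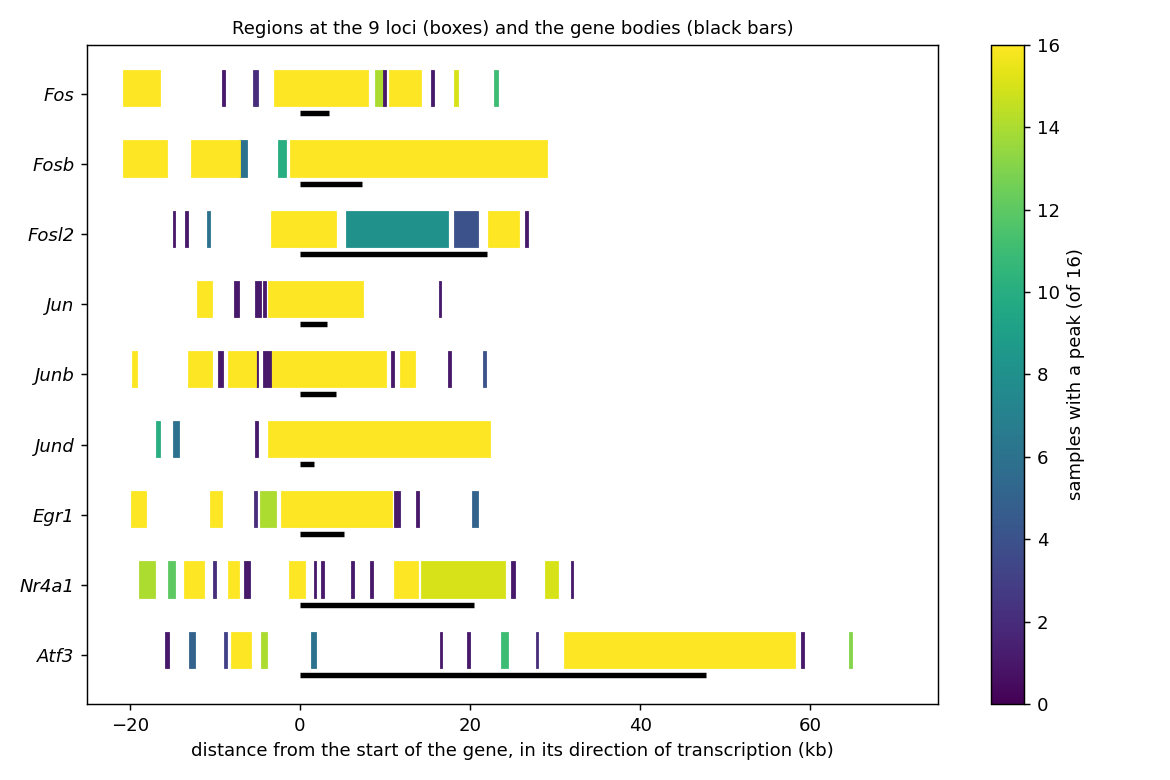
Regions at the 9 loci, as boxes along the distance in kb from the start of the gene in its direction of transcription; the colour gives the number of samples with a peak, and black bars are the gene bodies. Boxes called in all 16 samples cover Fos, Fosb, Jun, Junb, Jund and Egr1 from end to end, whereas Fosl2, Nr4a1 and Atf3 have stretches called in few samples.

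The short genes lay under a peak along their whole length in many samples. Jun was fully covered in all 16 samples, Junb in 11, Egr1 in 10, Fos and Jund in 8 each and Fosb in 7. Of the 3573 protein-coding genes of up to 10000 bases with a start-site region, 43 (1.20%) were fully covered in all 16 samples, and 2.04% to 5.46% in a given sample. Both samples of 129, CAST and WSB had all 6 of these genes fully covered, whereas the AJ male, the B6 male, the NOD female and the NOD male had 1 each. The shares over all 3573 genes also differed between these samples. They were 5.32% and 2.71% in the 129 female and male, 5.46% and 4.93% in CAST, and 4.59% and 3.78% in WSB. They were 2.04% in the AJ male, 2.46% in the B6 male, and 2.97% and 2.77% in the NOD female and male. The longer genes were covered in part. Fosl2 was covered to 85.9% in the CAST female and 56.8% in the CAST male, and to at most 19.4% elsewhere. Nr4a1 reached 47.1% in the 129 female and 34.8% in the CAST female, and at most 12.3% in the other 14 samples. Atf3 was covered to between 5.59% in the B6 male and 33.2% in the 129 female.

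The tallest point of these regions often lay away from the start site. At Fosl2, Nr4a1 and Atf3 it was within 281 bases of a start of the gene in all 16 samples. At Egr1 it was 539 to 700 bases past the end of the gene in 14 samples, and 674 and 679 bases downstream of the first start in the NZO female and the B6 male. At Fosb it was 386 to 1064 bases past the end of the gene in 14 samples, and near the start in both NZO samples. At Junb it was within 105 bases of the start in the NZO male and the WSB male and 2042 to 3763 bases downstream, within the gene, in the other 14. At Fos it was 1638 to 1697 bases upstream in 9 samples, 4772 to 5044 bases downstream and past the gene end in 6, and at the start in the NZO male. At Jund it was 3891 to 4034 bases downstream in 12 samples, nearer to the start of Iqcn than to that of Jund, and within 138 bases of the Jund start in both CAST and both NZO samples.

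**Figure D2:**
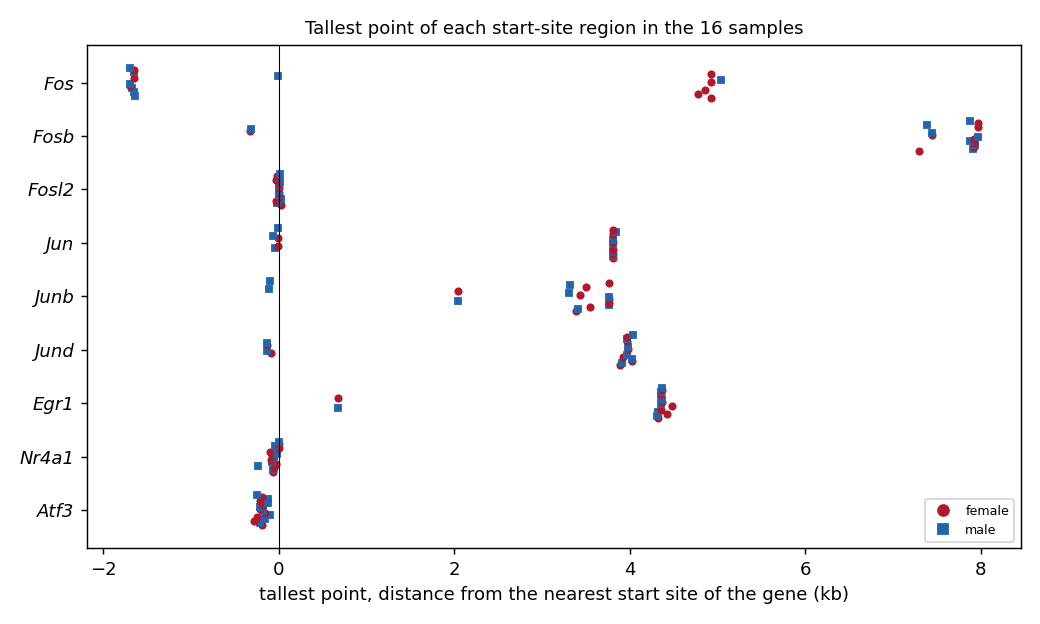
Tallest point of each start-site region in the 16 samples, as the distance in kb from the nearest of the annotated starts of the gene (0), which at Fosb and Egr1 is not always the first, with circles for females and squares for males. Fosl2, Nr4a1 and Atf3 gather at 0, and Fosb, Jun, Junb, Jund and Egr1 gather 2 to 8 kb downstream with a few samples at or near the start.

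Jun had the strongest signal of the 9 genes and the only start-site region with a strain effect. Its scaled signal was 18.8 and 17.9 in the NOD female and male, 14.1 and 13.4 in AJ, 11.1 and 13.9 in 129, 13.7 and 8.18 in B6, and 8.77 and 8.60 in NZO. In the wild-derived strains it was 11.8 and 10.4 in PWK, 7.08 and 7.40 in CAST, and 6.40 and 6.43 in WSB. NOD was above every other strain with no overlap of samples, and WSB and CAST were the lowest. The strain means ran from 18.3 ± 0.638 (SD, n = 2) in NOD to 6.41 ± 0.0252 in WSB. AJ, 129, PWK, B6 and NZO, next after NOD in that order, overlapped with their neighbours. The strain effect had an adjusted p of 0.00814 (limma moderated F test, Benjamini-Hochberg over 40940 regions). The median level of this region was at the 98.2nd percentile of all start-site regions.

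In 10 of the 16 samples the tallest point of the Jun region was the same base, 3808 bases downstream of the start and 620 bases past the end of the gene (mm10 chr4:95048414). This included both samples of NOD, AJ and 129. In the B6 male, the CAST female, both NZO samples and the WSB male it lay within 63 bases of the start. The values of Jun thus describe 2 places, and the signal at each place in each sample was not analysed here. The 201 bases around the downstream point, on the strand of Jun, are shown because most values of the strain effect were read there. They overlapped no annotated untranslated region and held no match to the CRE, AP-1 or CArG motifs named above.
Jun downstream point, chr4:95048314-95048514, minus strand: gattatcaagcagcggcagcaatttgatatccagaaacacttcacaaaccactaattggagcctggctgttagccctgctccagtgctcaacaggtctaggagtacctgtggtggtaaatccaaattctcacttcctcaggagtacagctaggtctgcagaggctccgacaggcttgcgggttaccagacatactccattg

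The start-site regions of the other 8 genes did not pass the strain test, and in several strains the 2 samples lay far apart. Fos, the most rapidly induced AP-1 gene, ranged from 1.87 in the B6 male through a median of 3.33 to 5.59 in the 129 female (adjusted p = 0.148 for strain, limma). Its strain means were 4.52 ± 1.50 in 129, 4.35 ± 0.687 in NOD, 3.56 in both CAST (± 0.384) and PWK (± 0.259), 3.03 ± 1.65 in B6, 2.69 in both WSB (± 0.223) and NZO (± 0.290), and 2.54 ± 0.0663 in AJ (SD, n = 2 each). The 2 B6 samples, at 4.20 and 1.87, lay further apart than the highest and the lowest strain mean.

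Fosb ranged from 1.92 in the B6 male through a median of 3.23 to 6.21 in the 129 female (adjusted p = 0.213). Junb, which can hold back AP-1 activity driven by Jun, ranged from 1.60 in the B6 male through a median of 3.04 to 5.76 in the 129 female (adjusted p = 0.174). Jund, the Jun gene that is expressed without a stimulus, ranged from 2.59 in the NZO female through a median of 3.80 to 7.14 in the 129 female (adjusted p = 0.103). Egr1 ranged from 3.36 in the NZO female through a median of 4.88 to 7.86 in the 129 female (adjusted p = 0.139, limma). In these regions the 129 female was the highest of all 16 samples.

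Fosl2, which codes for the Fos-related antigen Fra-2, ranged from 1.09 in the AJ male through a median of 2.52 to 4.16 in the NZO male (adjusted p = 0.262). Atf3 ranged from 1.24 in the B6 male through a median of 1.89 to 3.51 in the NZO male (adjusted p = 0.484). Nr4a1 was the weakest start-site region, from 0.491 in the AJ male through a median of 1.15 to 2.36 in the 129 female, and the closest of these 8 to the threshold (adjusted p = 0.0595, limma). Both NZO samples of Fosl2 lay far apart, at 1.70 and 4.16, and those of Atf3 at 1.58 and 3.51. AJ had the lowest strain mean at Fos, Fosl2, Egr1, Nr4a1 and Atf3, at 2.54, 1.42, 3.55, 0.638 and 1.30.

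**Figure D3:**
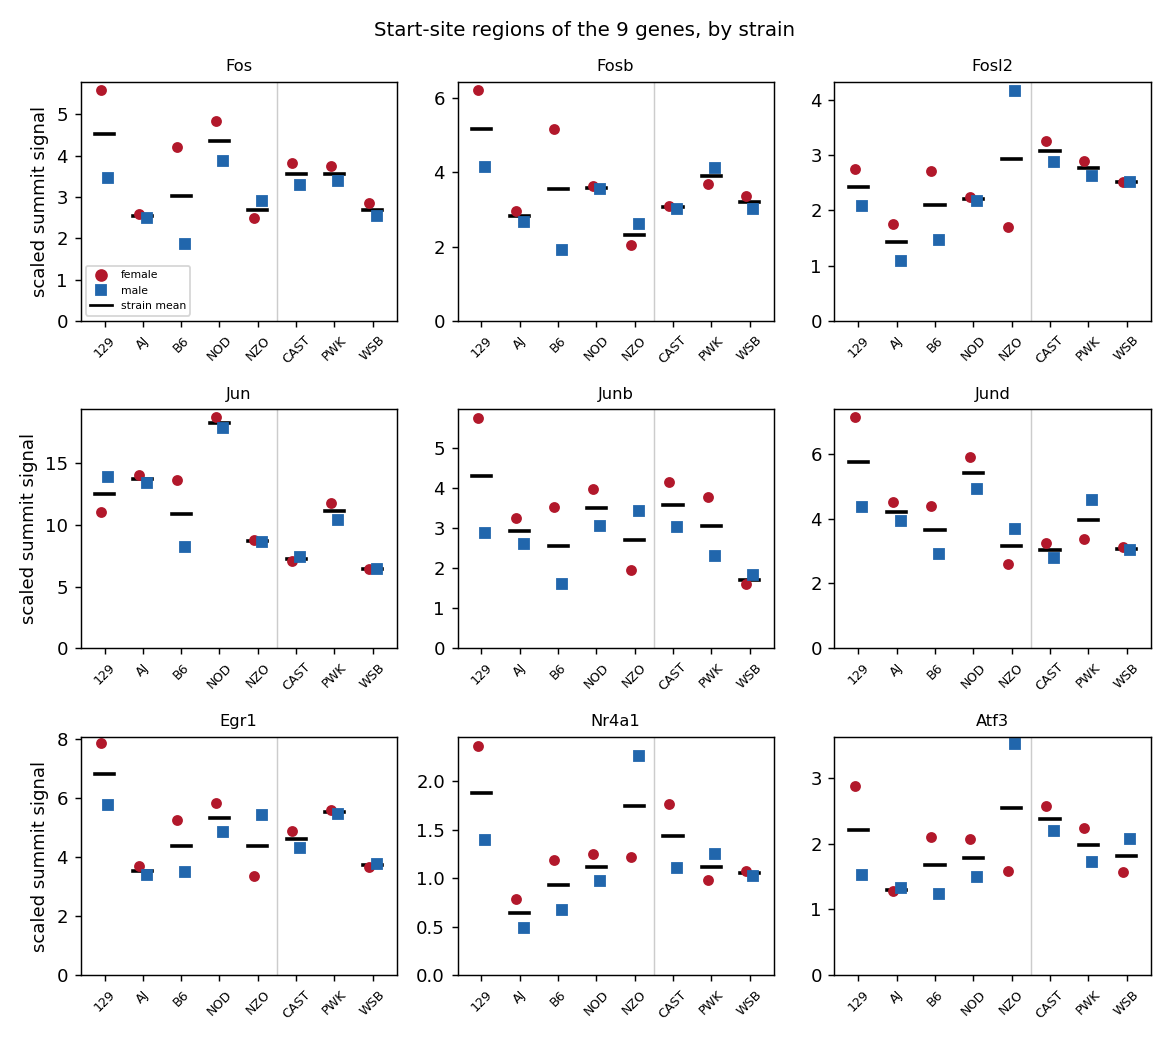
Scaled summit signal of the 9 start-site regions by strain, with classical strains left and wild-derived strains right of the grey line, circles for females, squares for males and bars for the mean of the 2 samples. NOD stands above the other strains at Jun, while at Fos, Fosb and Junb the 2 samples of B6 and those of 129 lie far apart.

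Of the 25 regions at these loci called in all 16 samples, 6 (24.0%) had a strain effect, where the share among all 40940 shared regions was 35.7%. At an unadjusted p under 0.05 it was 9 of 25 and 51.3% of all. With no centring of the samples, 23 of the 25 and 63.2% of all were called, and the Jun start had an adjusted p of 0.0512. Among start-site regions alone, 21.2% of 9677 were called. The SD of the strain means was 0.373 on the log2 scale as a median over the 25 regions and 0.379 over all shared regions. The median absolute difference within a strain's pair of samples was 0.378 at these regions and 0.353 over all.

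Apart from the Jun start, the strongest strain effect was in the 3′ flank of Fosl2 (mm10 chr5:32158000-32161516, intergenic). Scaled signal was 1.16 and 0.971 in the CAST female and male, 1.02 and 0.594 in PWK and 0.632 and 0.557 in WSB. It was 0.296 and 0.745 in NZO, 0.417 and 0.386 in B6, 0.431 and 0.246 in 129, 0.372 and 0.244 in NOD, and 0.262 and 0.182 in AJ. All 6 wild-derived samples were above every classical sample but the NZO male. The adjusted p for strain was 0.0103 (limma). The tallest point lay 563 to 1067 bases past the end of Fosl2. The 201 bases around the median position are shown, since this was the region with the largest difference between strain classes at these loci, and they held no match to the CRE, AP-1 or CArG motifs.
Fosl2 3′ flank, chr5:32158742-32158942, plus strand: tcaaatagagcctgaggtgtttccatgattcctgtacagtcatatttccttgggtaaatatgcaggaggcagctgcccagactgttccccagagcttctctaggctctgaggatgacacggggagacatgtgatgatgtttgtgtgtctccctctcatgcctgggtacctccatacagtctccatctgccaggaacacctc

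The other 4 regions with a strain effect were weaker. A region 10378 bases upstream of Jun (chr4:95062600-95064182), in an exon of the antisense gene Junos, was highest in CAST (1.25 and 1.21) and PWK (1.02 and 1.09) and lowest in WSB (0.604 and 0.477), with an adjusted p of 0.0315 (limma). At the first annotated start of Nr4a1 (chr15:101253089-101254929), the 129 samples had 1.88 and 1.45, the NZO samples 1.47 and 1.82, and the AJ samples 0.677 and 0.709 (adjusted p = 0.0421). In an exon of Hook2, 19100 bases upstream of Junb (chr8:84997818-84998331), 129 had 1.64 and 1.32 and CAST 0.717 and 0.551 (adjusted p = 0.0435). At the start of Reep2, 18047 bases upstream of Egr1 on chromosome 18, 129 had 2.64 and 1.96 and AJ 0.969 and 0.818 (adjusted p = 0.0357). The last 2 lie at other genes within the 20 kb flanks. These calls were the least firm. The Jun start and the Fosl2 flank each passed in 31 alternatives, of 34 and 33 that gave a value, the region upstream of Jun in 24 and the regions at Nr4a1, Hook2 and Reep2 in 12, 11 and 18 of 34. Without the 129 female the last 3 had an adjusted p of 0.0881, 0.0821 and 0.0893 (limma).

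**Figure D4:**
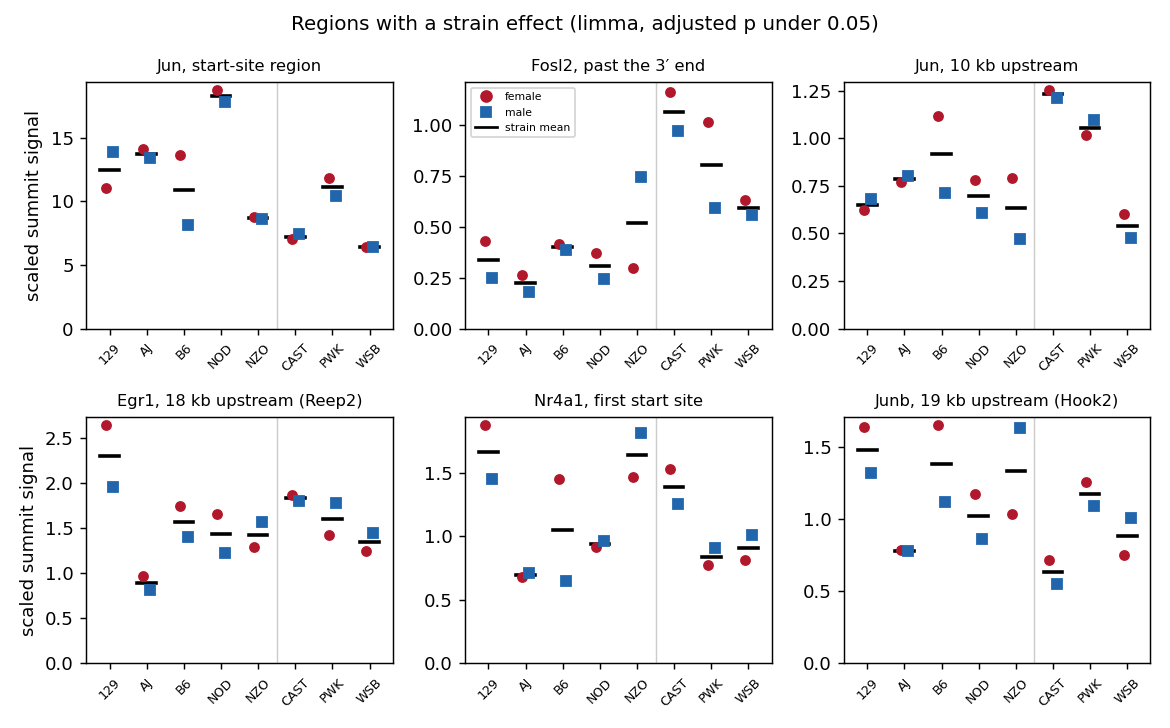
Scaled summit signal of the 6 regions with an adjusted p under 0.05 for strain (limma), by strain, with circles for females, squares for males and bars for the mean of the 2 samples. NOD leads at the Jun start, CAST and PWK lead in the Fosl2 flank and upstream of Jun, and AJ is lowest at the Reep2 start and at the first Nr4a1 start.

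To compare the sexes, the female minus male difference was taken within each strain. None of the 25 regions passed the test (0 at an adjusted and 0 at an unadjusted p under 0.05, limma), and over all shared regions 0 were called in either direction (0%), with 3.96% at an unadjusted p under 0.05. The mean difference was above 0 at all 25 regions, from 0.02 to 0.38 on the log2 scale, and was above 0 at 47.2% of all shared regions and 43.8% of all start-site regions. The 25 regions rest on the same 16 samples and are not independent of each other. Among the 9 start-site regions, Junb had the largest difference (0.38 ± 0.19, SE; female above male in 6 of 8 strains; exact p = 0.133 from all sign flips, two-sided; adjusted p = 0.999). Fos had 0.32 ± 0.15, higher in the female in 7 of 8 strains (exact p = 0.0391; adjusted p = 0.999). The exact p of the other 7 lay between 0.258 and 0.57, where the smallest that this test can give is 0.00781.

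The difference between the sexes took opposite directions in the B6 and the NZO pair. In B6 all 25 regions were higher in the female, by a median of 0.74 on the log2 scale (1.67-fold). In NZO 22 of 25 were higher in the male, by a median of -0.68 for female minus male. In 129 the female was higher at 23 regions (median 0.44), in NOD at 24 (0.32), in CAST at 24 (0.23) and in AJ at 19 (0.18). PWK (14 of 25) and WSB (13 of 25) were near an even split. Over all 40940 shared regions, to which the values are centred, the female was higher at 51.1% in B6, 49.6% were higher in the male in NZO, and 48.6% were higher in the female in 129. Over all 9677 shared start-site regions, 72.1% were higher in the B6 female and 78.8% in the NZO male. The 129 female was higher at 68.6% and the NOD female at 68.0%. These pairs leaned the same way as at these genes, and so did CAST, with 54.1% for the female. In AJ, PWK and WSB the female was higher at 46.2%, 27.3% and 30.8%, so most start-site regions were higher in the male. Over the 3771 shared regions at least 3000 bases wide, the shares of the first 4 were 55.3%, 53.5%, 55.6% and 63.2%. With 1 pair per strain, sex and sample cannot be told apart here.

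**Figure D5:**
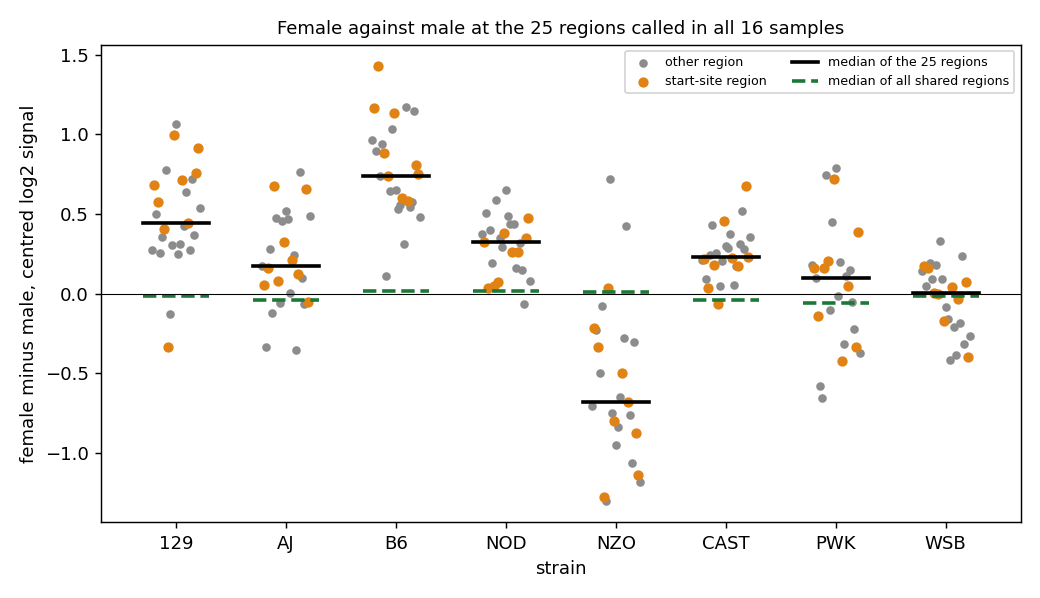
Female minus male difference in centred log2 signal at each of the 25 regions, by strain, with start-site regions in orange, the median of the 25 as a black bar and the median of all 40940 shared regions as a green dashed line. All points of B6 lie above 0 and 22 of 25 points of NZO lie below it, while the green lines stay near 0.

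These samples stood apart across most of the 25 regions. The 129 female was above the median of the samples at 24 of them and the highest of all at 13, where it was the highest at 11.8% of all shared regions. The NZO male was above the median at 20 and the highest at 7 (14.7% of all). Start-site regions leaned the same way: the 129 female was above the median at 78.0% and the NZO male at 70.5% of all shared ones. At the wide regions the 129 female was above the median at 63.6% and the highest at 21.8%. The NZO male was above it at 45.4% and the highest at 10.2% of them. At shared regions with a median scaled signal of at least 3, they were above it at 50.8% and 41.5%. The AJ male and the B6 male were each the lowest at 8, and the share of all regions at which they were the lowest was not counted. They were above the median at 53.3% and 48.4% of all shared regions, and at 40.9% and 24.4% of shared start-site regions. Relative to the median over the samples, the typical member region was at 0.73 on the log2 scale in the 129 female and at -0.50 in the AJ male. Of the 31 regions called in 1 sample alone, 10 were in the 129 female and 8 in the NZO male. These samples carried a peak at 61.4% and 67.5% of the 83 regions, and at 24.0% and 37.9% of all merged regions. How the single-sample regions of the whole series divide among the samples was not counted. The part of cell makeup, depth or handling in these differences was not tested. The marker sums of the 129 female were 19.4 for endocrine genes, the highest of all samples, 0.879 for acinar, 1.48 for duct, 0.172 for endothelial and 0 for leukocyte genes. Those of the NZO male were 14.9, 1.16, 3.82, 0 and 0.691 in the same order, and its acinar sum was the highest of all samples.

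The start-site regions of the 9 genes varied together across samples to differing degrees. Over the 16 samples, Pearson's r between 2 of these genes had a median of 0.595 over 36 pairs, where the median over all pairs of the 9677 shared start-site regions was 0.219. The highest values were 0.87 for Fos and Egr1, 0.85 for Fos and Fosb, 0.85 for Fosl2 and Atf3, and 0.81 for Fos and Junb. Jun had r of 0.72 with Jund, 0.46 with Junb, 0.44 with Fos, 0.37 with Fosb and 0.36 with Egr1, but -0.30 with Fosl2, -0.24 with Atf3 and -0.17 with Nr4a1. The median was 0.365 over the 8 pairs with Jun and 0.626 over the 28 without it. Jund also had low values with Fosl2 (0.05) and Atf3 (0.16). The points share libraries and the centring, and members of a strain are not independent, so these are descriptions. The gene outside the list whose start-site region was most like each was Ndst2 for Fos (r = 0.902), Ccdc113 for Fosb (0.908), Gse1 for Fosl2 (0.940), Rad23b for Jun (0.925), Slain2 for Junb (0.883), Esyt2 for Jund (0.905), Tsc22d1 for Egr1 (0.931), Txlna for Nr4a1 (0.979) and the region shared by Derl2 and Mis12 for Atf3 (0.953).

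No difference between the strain classes passed the test at these loci. The limma test on the 8 strain means called 0 of the 25 regions, and over all shared regions 3 were higher (0.00733%) and 11 lower (0.0269%) in wild-derived strains. At an unadjusted p under 0.05 it was 2 of 25, against 12.1% of all. These were the Fosl2 flank, with a wild-derived minus classical difference of 1.21 ± 0.28 (SE; adjusted p = 0.156; exact permutation p = 0.0179, the smallest it can give), and the Jun start, with -0.62 ± 0.28 (adjusted p = 0.399; all 56 splits of the strains, exact two-sided p = 0.107). At Jun, PWK lay inside the range of the classical strains. For the other 8 start-site regions the difference lay between -0.36 for Jund and 0.41 for Fosl2 (exact p between 0.0893 and 1, smallest possible 0.0179).

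Regions in some strains only were mostly weak. Of the 83 regions, 25 were called in all 16 samples and 31 in 1 sample, or 30.1% and 37.3%, where the shares over all merged regions were 11.8% and 46.4%. In both samples of at least 1 strain and neither of another were 16 regions (19.3%), where 27.9% of all merged regions met the same rule. The strongest lay 1633 bases upstream of the Fosb start (chr7:19311684-19312474). It was called in both samples of 129, AJ, B6, NZO and WSB and in no sample of CAST, NOD and PWK, with a highest strain mean of 1.13 ± 0.0675 (SD, n = 2) in NZO. Next were 2 regions at Atf3, in an intron (chr1:191193598-191194311) and 12347 bases upstream of the first start (chr1:191230386-191230927). Their highest strain means, both in NZO, were 1.10 ± 1.02 and 0.958 ± 0.831, and the NZO male alone had 1.82 and 1.55. A region 14211 bases upstream of Jund (chr8:70684179-70684738) was called in both samples of CAST and WSB and in none of AJ, B6, NOD and NZO, with 0.911 ± 0.0721 in CAST. A region of 11942 bases in the body of Fosl2 (chr5:32141312-32153253) was called in both samples of CAST and WSB and in none of AJ and NOD. Its signal was low, at 0.390 ± 0.0625 in CAST. The other 5 of the 10 strongest had a highest strain mean between 0.465 and 0.745. A region with no listed peak is one that did not pass the authors' threshold, and its chromatin may still be accessible.

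Start sites of other genes of the pathway were read in the same way. Of 14 AP-1 partners (Maf, Batf and Nfe2 family genes and others), 7 had a start-site region in all 16 samples and 1 had a strain effect, Nfe2l2, a factor of the oxidative stress response. It was 4.48 ± 0.0677 in PWK and 1.91 ± 0.178 in WSB (adjusted p = 0.0433). Of 40 other immediate early genes, 34 had such a region and 4 a strain effect (11.8%, where 21.2% of all start-site regions did). These were Ptgs2 (cyclooxygenase 2; NZO 1.88 ± 0.0633, CAST 0.354 ± 0.126; adjusted p = 0.000585), Per1 (a clock gene; adjusted p = 0.0319), Nfil3 (a bZIP repressor; adjusted p = 0.0349) and Dusp6 (an ERK phosphatase; adjusted p = 0.0406). Of 31 upstream regulators, 26 had such a region and 7 (26.9%) a strain effect. The 5 with the smallest adjusted p were Mef2c (NZO 0.805 ± 0.301, CAST 0.151 ± 0.0262; 0.00143), the CREB coactivator Crtc1 (CAST 2.37 ± 0.0291, WSB 0.953 ± 0.0937; 0.00694), the kinase gene Map2k4 (0.0239), Mef2a (0.0315) and Mapk14, which codes for p38 (0.0383). In the B6 pair the female was higher at 28 of the 34 immediate early genes, and in the NZO pair the male was higher at 29 of 34, beside the 72.1% and 78.8% of all start-site regions given above.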

How the data were processed

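ATAC-seq peak lists of pancreatic islets from 8 strains, 1 female and 1 male each, were used. Per the methods of the study and the submitters' processing notes, the authors trimmed reads with cutadapt 2.0, aligned them to mm10 with Bowtie2 2.3.4.1, removed mitochondrial and, with Picard 2.9.2, duplicate reads, and called peaks sample by sample with MOSAiCS (false discovery rate 0.05). A shift for the transposase cut is not given in the sources used here. The reads of all strains were aligned to the B6 reference. The deposited signal is the summit signal of a peak, a whole number not scaled to depth, and the deposited mean signal served as an alternative. The deposited significance is a −log10 p-value, used for a stricter alternative at 3.531. The deposited strain lists carry a −log10 irreproducible discovery rate, of which peaks at up to 0.05 were kept.

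Peaks were merged in Python 3.11.15, and bedtools 2.31.1 gave the same number of merged regions. Regions were annotated with GENCODE M21, and a start-site region overlaps the start of a protein-coding transcript, the strongest where several do. Values were log2(summit signal + 1) centred on each sample's median over the 40940 autosomal shared regions. This scale understates changes of weak regions, and fold changes are relative to that median. Strain and sex were tested with limma 3.58.1 (R 4.3.3) in a model of both, and strain class on 8 strain means. A region was called where p, adjusted by Benjamini-Hochberg over all 40940, was under 0.05. The fit was tested on simulated data. Single regions were also tested with exact permutation tests. Nothing says whether the 50 islets of a sample came from 1 or several animals, and p-values measure the spread between these samples.

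The genes and lists were chosen with earlier results of these data known. Named were the 9 start-site regions, other shared regions past the strain test, up to 10 regions called in both samples of 1 strain and neither of another, up to 5 genes of each pathway list by adjusted p, and the gene most alike to each member. Alternatives changed the scaling, the pseudocount, the signal column, the filter on regions, the peak threshold and the samples. The value of 1 marker gene is not reported here.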

Additional observations from a re-analysis of the deposited data

Results flagged for a closer look

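Samples far from their group were sought in the start-site regions of the 9 genes with Dixon's test, in 36 groups (females, males, classical females and classical males for each gene), of which about 1 in 20 is flagged by chance. The Atf3 region of the NZO male, at 3.51, was flagged both among the 5 classical males, where the other 4 lay between 1.24 and 1.52, and among the 8 males, where the others lay between 1.24 and 2.18. This sample also had the highest duct (3.82), leukocyte (0.691) and acinar (1.16) marker sums, and an endothelial sum of 0. Its endocrine sum, at 14.9, was near the lowest (14.1, in the B6 male). Only 1 of 10 acinar, 2 of 8 leukocyte and 2 of 6 endothelial markers had a region in any sample, but 6 of 6 duct markers did. The part of other cells in its Atf3 value was not tested.

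The female minus male difference over the 25 shared regions had a median of 0.74 on the log2 scale in B6 and -0.68 in NZO, opposite directions in 2 strains. With 1 pair of samples in each, the difference was not tested.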

How the results depend on the processing

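The count of 6 regions with a strain effect depended on the scaling and on the samples. It was 23 with no centring, 2 of 34 with regions called in at least 12 samples, 3 without strain 129, 3 without AJ, 1 without CAST, 3 without NOD, 16 without NZO and 3 without WSB, and ran from 2 to 18 when single samples were left out (18 without the NZO female, 15 without the NZO male, 2 without either sample of CAST, NOD or WSB, 3 without the 129 female or either AJ sample). The share of all shared regions, 35.7% in the main fit, was 63.2% with no centring, 49.7% without NZO and 15.5% without CAST. It was 28.3% without AJ, 26.7% without NOD and 25.7% without WSB. Without strain 129 it stayed at 35.0%, although the count was 3. When single samples were left out, the share of all shared regions mostly moved with the count. Both rose without either NZO sample. Both fell without either sample of CAST, NOD, WSB, AJ or PWK and without the 129 female. They moved in opposite directions without the 129 male or either B6 sample. Most of these swings were thus not particular to these loci. Of all regions called in at least 12 samples, 19.3% had a strain effect. Without both the 129 female and the NZO male, an alternative chosen after seeing the data, the count was 7. It was between 4 and 7 with no sex term, quantile normalisation, a pseudocount of 5, the mean or summed signal, stricter peaks, chromosome X added, without B6 and without PWK. The Jun start kept an adjusted p between 0.00356 and 0.0915 over its alternatives. The counts for sex and for strain class were 0 in every alternative run. At an unadjusted p under 0.05 (limma) they were up to 10 and 4 regions. The 10 for sex was reached without strain NZO, where the main fit had 0. The share of all regions at that threshold was not counted in the alternatives. The replicate numbers stand for the sexes, so the replicate block is the sex term, and the fit with no sex term called 7. Of 474 single-region strain results, 76 lost and 28 gained a call. A reversed direction of a sex or class difference was counted only where a run passed the test. As none passed, whether these directions held was not tested. With 2 samples a strain, neither small strain effects nor sex effects within a strain can be resolved.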
